A study of Mus musculus with 48 samples.

Results

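The cells described here were the Foxl2-positive cells among mouse embryonic stem cells that had been treated for 6 days with V580, a pair of small molecules (vitamin C and the retinoic acid receptor agonist AM580). The cells were selected on their measured Foxl2 UMIs: a cell was taken as Foxl2-positive when its barcode in the 10x Genomics single-cell table carried at least 1 UMI (unique molecular identifier, 1 counted mRNA molecule) of Foxl2 and UMIs of at least 200 genes. 249 of 15412 barcodes met the rule, a share of 1.62% (exact binomial 95% interval 1.42 to 1.83). The series set out to turn female embryonic stem cells into gonadal somatic cell-like cells (GSCLCs) that could stand in for the gonadal somatic cells which accompany germ cells into meiosis. The single-cell table was 1 sample of GSCLCs, labelled C57BL/6, taken on day 6 (V580_D6). Bulk libraries, 3 in each group, came from V580 cells on days 4, 6, 8 and 10 (V580_D4, V580_D6, V580_D8 and V580_D10) and from cells that the labels describe as separated from E12.5 female gonads (E12.5_GC), also C57BL/6. Every V580 group received both compounds, so neither compound can be told apart from the other.

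Foxl2 is a forkhead transcription factor. In the fetal ovary it is switched on in the pre-granulosa lineage of supporting cells, beside the Wnt4 and Rspo1 signals, and in the adult ovary it holds granulosa cells in their identity against a Sertoli cell programme. It is also active outside the ovary, in the pituitary and in the mesenchyme around the developing eye, so Foxl2 alone does not define a pre-granulosa cell.

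The mouse Foxl2 gene lies on the forward strand at chr9:98955288-98958543 (GRCm38) as a single exon of 3256 bases with the coding sequence at chr9:98955661-98956785. The start of the exon overlaps that of the antisense gene Foxl2os by 12 bases. The primer pair with which the study measured Foxl2 by quantitative PCR is printed here because it reads another end of the transcript than the single-cell table does. Both primers lie in the coding sequence, the forward one at chr9:98955778-98955798 on the forward strand and the reverse one at chr9:98955902-98955922 on the reverse strand.
Foxl2 forward: acaacaccggagaaaccagac
Foxl2 reverse: cgtagaacgggaacttggcta
The 145-base product ends 2621 bases before the annotated end of the transcript. The 10x method counts the 3′ ends of transcripts, so it does not read this product.

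Foxl2 was sparse in the single-cell table. It gave 276 of 163008244 UMIs, a level of 1.69 CPM (UMIs of the gene for every 1000000 UMIs; exact Poisson 95% interval 1.499 to 1.91). Of the 249 positive barcodes, 231 held 1 Foxl2 UMI, 13 held 2, 4 held 3 and 1 held 7, while the other 15163 barcodes held none. Most members thus sat 1 molecule above the rule's limit. All intervals given for the single-cell table cover counting error only, and since it is 1 sample, no test was made between its cells. The barcodes carried 1 common suffix, as from a single table, although the methods speak of 10x sequencing in triplicate, so no spread between runs could be given.

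How often a barcode counted as positive followed how deeply it was read. When barcodes were ordered by total UMIs and divided into 10 bins of equal size, the share of positive barcodes was 0.195% in the shallowest bin (median 1005 UMIs) and 3.44% in the deepest (median 28572 UMIs). The Foxl2 level itself lay between 1.20 and 2.75 CPM across the bins. Foxl2-positive barcodes held 904 to 179817 UMIs with a median of 15311, against 9193 over all barcodes. For that reason each was set beside the 5 Foxl2-negative barcodes closest to it in total UMIs, which gave 1245 matched barcodes with a median of 15309 UMIs. Median mitochondrial shares of UMIs were 3.72% in the positive and 3.35% in the matched barcodes, and its part in the results was not tested.

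**Figure D1:**
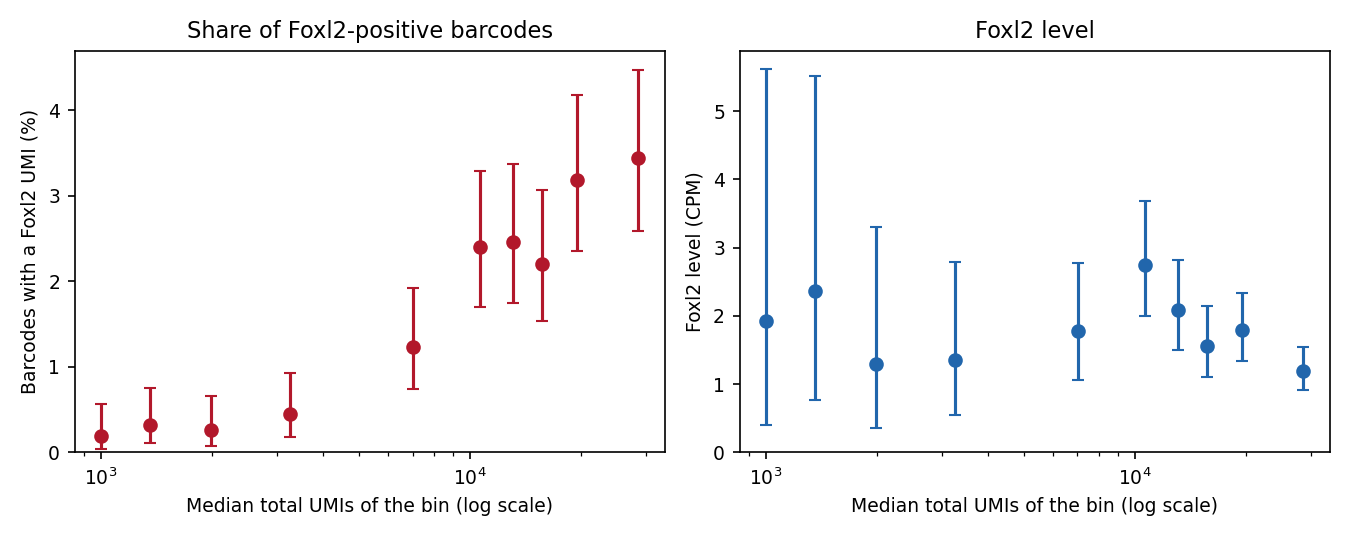
The left panel plots the share of barcodes with a Foxl2 UMI (%) and the right panel the Foxl2 level (CPM) in each of the 10 bins, against the bin's median total UMIs on a log scale, with bars for the exact 95% intervals. The share is 0.195% in the shallowest bin and 3.44% in the deepest, whereas the level stays between 1.20 and 2.75 CPM.

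Foxl2-positive cells were spread over several clusters. Clustering without Foxl2 gave 11 clusters among the 15315 barcodes with at most 40% mitochondrial UMIs, and all 249 positive barcodes were among them. This clustering cannot show whether Foxl2-positive cells form a group of their own. Foxl2 was left out of it, and most members only just met the rule, so cells of the same kind can count as negative. A mesothelial-like cluster of 2788 barcodes, led by Upk3b and Aldh1a2, held 80 of them, or 32.1%, while it held 22.0% of all UMIs. An interstitial-like cluster of 1877 barcodes, which was also led by the smooth muscle genes Myh11, Actg2 and Acta2, held 56. A cycling mesothelial-like cluster of 1934 barcodes held 53, and an epithelial-like cluster of 1017 barcodes, led by Wfdc2 and Cxcl15, held 26. The extraembryonic endoderm-like cluster of 1298 barcodes held 9.

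In these 4 clusters with most members the share of positive barcodes ranged from 2.56% (1.68 to 3.72) in the epithelial-like to 2.98% (2.26 to 3.86) in the interstitial-like cluster. It was 2.87% (2.28 to 3.56) in the mesothelial-like and 2.74% (2.06 to 3.57) in the cycling mesothelial-like cluster, so their intervals overlapped throughout. The endoderm-like cluster, for which Foxl2 is no known marker, gave 0.693% (0.318 to 1.31) although its barcodes were the deepest, with a median of 18068 UMIs against 12170 to 17302. Whether Foxl2 UMIs in the endoderm-like cluster were background was not tested, and 1 of its barcodes held 3 of them.

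The Foxl2 level, too, was lowest in the endoderm-like cluster among these 5. It was 2.52 CPM (2.02 to 3.09) in the mesothelial-like, 2.35 (1.82 to 2.99) in the interstitial-like, 1.59 (1.20 to 2.07) in the cycling mesothelial-like and 1.52 (1.01 to 2.19) in the epithelial-like cluster. It was 0.454 (0.227 to 0.813) in the endoderm-like cluster, whose interval lay below the other 4. With every barcode thinned to 7400 UMIs and shallower ones left out, the shares were 1.66% in the mesothelial-like, 1.64% in the interstitial-like, 1.29% in the cycling mesothelial-like, 0.983% in the epithelial-like and 0.411% in the endoderm-like cluster. The remaining 25 members lay in smaller or shallower clusters, 15 of them in a cluster of 3437 barcodes with a median of 1461 UMIs, 4 in an unnamed cluster led by Rhox9 and Rhox6, 3 in a cluster rich in mitochondrial transcripts, and 1 each in a cluster led by Cited1 and S100g, in a neuron-like one and in one led by Zscan4 genes.

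**Figure D2:**
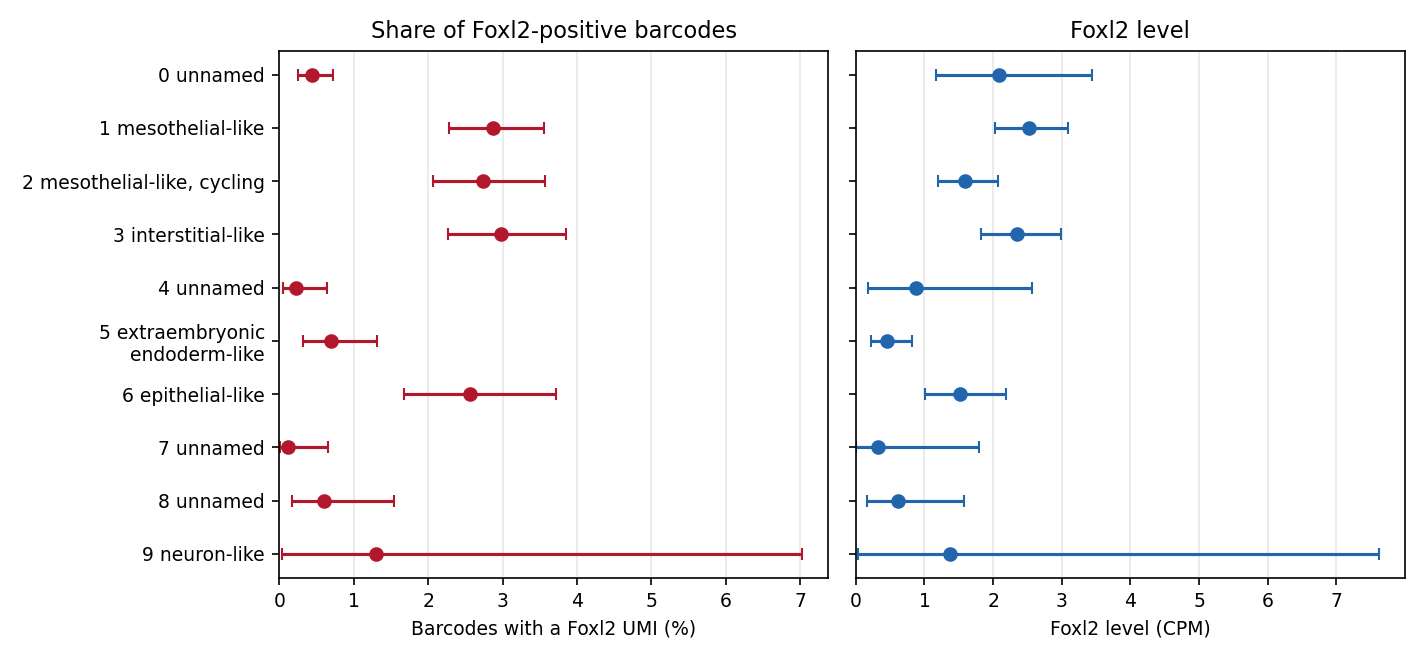
For each cluster the left panel plots the share of barcodes with a Foxl2 UMI (%) and the right panel the Foxl2 level (CPM), with bars for exact 95% intervals; a cluster of 25 barcodes is not drawn. The share lies between 2.56% and 2.98% in the mesothelial-like, cycling mesothelial-like, interstitial-like and epithelial-like clusters and at 0.693% in the endoderm-like cluster.

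Barcodes with more than 1 Foxl2 UMI also lay in several clusters. Of these 18 barcodes, 7 lay in the interstitial-like and 5 in the mesothelial-like cluster. The barcode with 7 Foxl2 UMIs belonged to the mesothelial-like cluster and held 10831 UMIs in all. It carried 3 UMIs of Wt1, a regulator of the early gonad, 4 of Wnt4, the signal that opposes testis fate, and 8 of the mesenchymal nuclear receptor Nr2f2, but none of Gata4, Rspo1, Fst or Kitl. Smooth muscle genes summed to 4877 CPM (4656 to 5107) in the 18 barcodes and to 1857 (1816 to 1899) in those with 1 Foxl2 UMI. They summed to 4298 CPM in the interstitial-like cluster, which held 7 of the 18. The part of the clusters in this difference was not tested. Supporting cell genes summed to 598 (522 to 682) and 570 (547 to 593), which could not be told apart at this depth.

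The Foxl2-positive cells as a whole resembled their matched neighbours closely. Over 11217 genes with enough UMIs to compare, 92.8% of levels lay within 1.5-fold and the median log2 fold was 0.02. Pearson's r of the log2 levels was 0.985, given only as a description since genes are not replicates. With 2-fold as the limit, 74 genes (0.66%) had a higher and 134 (1.19%) a lower level in Foxl2-positive cells. When each cell was instead matched to negatives of its own cluster, the counts were 40 and 30. Of these, 29 and 17 were also among the 74 and the 134.

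Genes of the supporting cell and pre-granulosa lineage were slightly higher in level in Foxl2-positive cells, none of them by 2-fold. 12 of the 15 listed genes besides Foxl2 had enough UMIs to compare, and their median log2 fold was 0.20, or 0.18 within clusters, against 0.02 over all genes. Of these 12, 0 were 2-fold higher, where 0.66% of all genes were, and 1 was 2-fold lower, where 1.19% were. Wnt4 stood at 323 CPM (307 to 340) in positive and 230 (224 to 236) in matched negative cells, and was found in 84.3% against 70.4% of them. Rspo1, which amplifies Wnt signals, stood at 22.3 (18.2 to 27.1) against 16.1 (14.5 to 17.9). Amhr2, the receptor of anti-Müllerian hormone, stood at 5.25 (3.36 to 7.81) against 2.76 (2.12 to 3.54), and Emx2, a homeobox gene needed for gonad formation, at 75.2 (67.5 to 83.6) against 58.7 (55.6 to 61.9). The levels of Wnt4 and Emx2 lay apart beyond their counting intervals, those of Rspo1 did so narrowly and those of Amhr2 overlapped. Within clusters the log2 folds were smaller, 0.18 (0.10 to 0.26) for Wnt4, 0.14 (-0.03 to 0.31) for Emx2 and 0.13 (-0.20 to 0.44) for Rspo1, so that the last 2 intervals included 0.

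Among the other genes of this lineage, Gng13 stood at 17.7 CPM (14.1 to 22.0) in positive and 12.1 (10.7 to 13.6) in matched cells. Over all matched cells the rest differed by little or stood below the matched level. Runx1, which helps to keep fetal granulosa identity, had a log2 fold of 0.20, the Kit receptor's ligand Kitl 0.20 and the signal Bmp2 0.21. Within clusters these values were larger, at 0.35 (0.01 to 0.67), 0.41 (0.005 to 0.81) and 0.52 (0.12 to 0.91), all with intervals above 0. A single barcode supplied 16 of the 73 Bmp2 UMIs. The Iroquois gene Irx3 had a log2 fold of -0.22. Fst, an activin antagonist made by pre-granulosa cells, stood at 21.4 CPM (17.4 to 26.1) in positive and 70.9 (67.4 to 74.4) in matched cells. Its highest level among the clusters was 309 CPM, in the endoderm-like one, and within clusters its log2 fold was -0.30. 3 listed genes fell short of the limit for comparison. Nr0b1, a nuclear receptor of the early gonad, had 0 UMIs in Foxl2-positive and 14 in matched cells, Irx5 had 10 and 72, and Foxl2os had 1 and 1.

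The early gonad genes Nr5a1 and Lhx9, the adult granulosa genes Cyp19a1 and Fshr and the Sertoli gene Amh were not detected or nearly so. Nr5a1, the nuclear receptor that defines gonadal and adrenal somatic cells, had 0 UMIs in the Foxl2-positive and 0 in the matched cells. Its exact Poisson upper limit was 0.8065 CPM in the former, which held 4573955 UMIs in all. Lhx9, a homeobox gene of the genital ridge, had 1 UMI in positive and 23 in matched cells. Aromatase (Cyp19a1), a direct target of Foxl2 in later granulosa cells, had 0 and 1, the follicle-stimulating hormone receptor Fshr 0 and 0, and the hormone gene Amh 0 and 3. Among genes of the gonad primordium with enough UMIs, Wt1 stood at 203 (190 to 216) against 178 (173 to 184) and Gata6 at 152 (141 to 164) against 143 (138 to 148). Within clusters Wt1 stood at 297 against 336 in the mesothelial-like and 53.4 against 64.2 in the epithelial-like cluster. It stood at 165 against 144 in the interstitial-like and 308 against 305 in the cycling mesothelial-like cluster. The intervals overlapped in each of these clusters. The label Foxl2-positive therefore describes these cells by 1 transcript, and no cell type name was given to them.

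Gata4 and Cd63 are the markers with which the study followed and sorted its gonadal cells. That sort used an antibody against CD63 protein, whereas the values here are mRNA counts. They do not show how the sort would divide these cells. Gata4, a zinc finger factor needed to form the genital ridge, was found in 78 of 249 Foxl2-positive cells, 31.3% (25.6 to 37.5), and in 31.1% (28.5 to 33.7) of matched cells. Its level was 27.8 CPM (23.2 to 33.0) in the former and 35.4 (33.0 to 38.0) in the latter, and within clusters its log2 fold was 0.06. The endoderm-like cluster held Gata4 at 89.2 CPM. Read the other way, Foxl2 stood at 1.58 CPM (1.27 to 1.95) in Gata4-positive and 1.75 (1.51 to 2.02) in Gata4-negative barcodes. Cd63, a tetraspanin of late endosomes and the cell surface, was found in 95.2% (91.7 to 97.5) of Foxl2-positive and 93.8% (92.3 to 95.1) of matched cells. The shares with either marker overlapped in their intervals between positive and matched cells. The level of Cd63 was lower in Foxl2-positive cells, at 418 CPM (400 to 437) against 475 (466 to 484), and within clusters its log2 fold was -0.05 (-0.12 to 0.02). Gata4, Wt1 and Wnt4 occurred together in 24.5% (19.3 to 30.3) of Foxl2-positive and 18.8% (16.7 to 21.1) of matched cells.

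Among the single genes, those highest in Foxl2-positive cells were a mixed group expressed at low levels. Of the 74 genes at least 2-fold higher, 68 had fewer than 100 UMIs in the Foxl2-positive cells, and the median was 36. Abcb1b, a drug efflux pump, had the highest fold among the 15 named genes, at 25.8 CPM (21.4 to 30.9) against 7.13 (6.07 to 8.33). A single barcode supplied 41 of its 118 UMIs, and its log2 fold of 1.86 was 0.55 when the deepest 5% of barcodes were left out. Zfp469, which encodes a zinc finger protein linked to collagen matrix, had a log2 fold of 1.81 (1.01 to 2.59) over all matched cells and 1.15 (0.41 to 1.86) within clusters. Alox5ap, which hands arachidonic acid to 5-lipoxygenase, had 1.71 (0.93 to 2.46) and 1.61 (0.84 to 2.35). The named genes were picked by their folds in these same cells, so intervals above 0 were favoured in advance. Both matchings also used the same Foxl2-positive cells, so the second is no separate check.

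Pgr, the progesterone receptor, was the nuclear hormone receptor in this group. It stood at 7.22 CPM (4.97 to 10.1) in Foxl2-positive and 2.32 (1.73 to 3.04) in matched cells and was found in 23 of 249 and 43 of 1245 of them. In the interstitial-like cluster it stood at 14.9 (8.36 to 24.6) in positive and 3.98 (2.43 to 6.15) in matched cells of that cluster. In the mesothelial-like cluster it stood at 8.64 (4.14 to 15.9) and 6.78 (4.80 to 9.31), where the intervals overlapped. Over all clusters its within-cluster log2 fold was 0.88 (0.26 to 1.48).

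The other named genes, apart from Slc4a8, had more of their UMIs in interstitial-like or in epithelial-like members than in members of any other cluster. Actg2, the smooth muscle gamma actin, stood at 65.6 (58.4 to 73.5) in Foxl2-positive and 23.6 (21.6 to 25.7) in matched cells, with 246 of its 300 UMIs in the interstitial-like cluster. Its within-cluster log2 fold was 0.24 (0.06 to 0.43). Thbs4, a matrix thrombospondin, had a log2 fold of 1.503 overall and 1.06 within clusters, and Synm, an intermediate filament protein, 1.66 and 1.18. The genes Mall, Tgm1, Vnn1 and Gprc5a were carried mainly by epithelial-like cells. Tgm1, which cross-links proteins of the keratinocyte envelope, had a log2 fold of 1.56, Gprc5a, a receptor induced by retinoic acid, 1.46, Mall, a membrane raft protein, 1.63, and Vnn1, a pantetheinase, 1.54. Without the deepest 5% of barcodes these 4 values were 0.32, 0.18, 0.79 and -0.09. The remaining named genes were Slc4a8, a bicarbonate transporter, at 1.63, the stress-induced cytokine Gdf15 at 1.58, Tmem26 at 1.53 and Csrnp3 at 1.43.

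**Figure D3:**
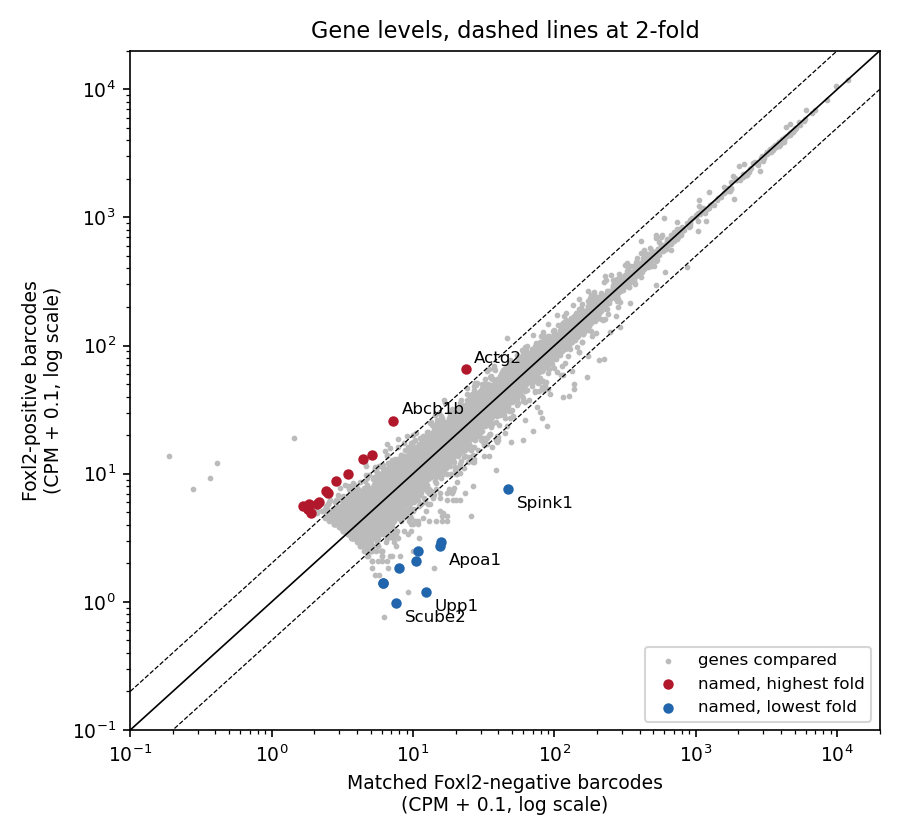
Each point is a gene, with its summed level (CPM + 0.1, log scale) in the 1245 matched Foxl2-negative barcodes on the horizontal axis and in the 249 Foxl2-positive barcodes on the vertical axis; red and blue points are the 15 and 10 named genes with the highest and lowest folds. Most genes, 92.8%, lie within 1.5-fold of the diagonal, and the named genes at the top of the range, such as Actg2 at 65.6 against 23.6, are few.

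5 genes outside the naming rule had still higher folds, and they rested on very few cells. They are named after their values were seen. B020031M17Rik had 62 UMIs in 6 Foxl2-positive cells, Gm20767 had 55 in 1, Usp17lc had 34 in 1, Gm5039 had 42 in 2 and Pnoc had 87 in 7. All of these but Pnoc are also among the leading genes of the small Zscan4 cluster, which held 1 Foxl2-positive barcode.

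Genes lower in Foxl2-positive cells were mostly genes of the endoderm-like cluster. Of the 134 genes at least 2-fold lower, 108 (80.6%) had their highest level in that cluster when the 5 deep named clusters were compared, against 25.6% of all genes compared. Foxl2-positive cells were also rare there, 3.61% of members against 12.9% of the matched cells. With matching within clusters 30 genes were lower, 17 of them among the 134. Upp1, a uridine phosphorylase, stood at 1.09 CPM (0.355 to 2.55) in Foxl2-positive and 12.3 (10.9 to 13.8) in matched cells. Its log2 fold of -3.49 was -2.79 (-4.43 to -1.54) within clusters. The protein C receptor gene Procr had -2.39 and -1.77, and the secreted Scube2 had -3.11 and -1.57. The trypsin inhibitor Spink1 had a log2 fold of -2.67 overall and -0.93 within clusters, and the apolipoprotein Apoa1 -2.56 and -0.74. Cck, Fhdc1, Myo5b, Frzb and Nrg1, the other 5 named genes, had overall log2 folds from -2.46 to -2.16.

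Gene lists summarised the same picture. All 10 compared extraembryonic endoderm genes were lower in Foxl2-positive cells, 6 of them by 2-fold where 1.19% of all genes were, with a median log2 fold of -1.35. The list summed to 1979 CPM (1938 to 2020) in Foxl2-positive and 2888 (2866 to 2910) in matched cells, and within clusters its median was -0.16. Smooth muscle genes had a median of 0.59, which was 0.06 within clusters, and interstitial genes 0.39, which was -0.08. Their summed levels were 2103 (2061 to 2146) against 1355 (1340 to 1370) and 970 (942 to 1000) against 783 (772 to 795) CPM. Epithelial genes had a median of 0.19, which was 0.37 within clusters and -0.09 without the single deepest barcode. That barcode held 3.93% of all UMIs of the Foxl2-positive cells.

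Wnt pathway genes were for the most part slightly higher in level. All 22 listed genes could be compared, 16 were higher and 6 lower, where 53.9% of all genes compared were higher. 0 of them were higher by 2-fold, where 0.66% of all genes were, and the median log2 fold was 0.35 overall and 0.17 within clusters. Most of the feedback genes named here, which Wnt signalling itself induces, had higher levels. Axin2 stood at 56.4 CPM against 35.1, Nkd1 at 84.8 against 54.0 and Sp5 at 23.8 against 17.5, while Rnf43 stood at 4.15 against 5.08. The log2 intervals lay above 0 for Axin2 (0.48 to 0.89), Nkd1 (0.48 to 0.82), Notum (0.28 to 0.91) and Sp5 (0.12 to 0.75). Those of Znrf3 (-0.04 to 0.57) and Rnf43 (-1.07 to 0.42) included 0, so the lower level of Rnf43 was not resolved. The Wnt antagonist gene Dkk2 stood at 25.1 against 13.3, while Dkk1 stood at 3.94 against 6.64. Genes of retinoic acid metabolism and response, which AM580 addresses through its receptor, had a median of 0.27. Stra8 stood at 50.1 against 27.6 and Crabp1, a cellular retinoic acid binding protein, at 42.0 against 23.8. The shares of cells with a UMI did not lie apart in the same way. Stra8 was found in 10.0% (6.60 to 14.5) of Foxl2-positive and 7.87% (6.44 to 9.51) of matched cells, and Crabp1 in 13.65% of both. Cyp26a1, which degrades retinoic acid, stood at 63.0 against 133.

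Cell cycle genes had slightly lower levels in Foxl2-positive cells. All 16 were lower, where 46.1% of all genes compared were, but 0 of them by 2-fold, where 1.19% were. Their median log2 fold was -0.20 overall and -0.18 within clusters. Mki67, a marker of cycling cells, stood at 162 CPM against 214 and Top2a, a topoisomerase of dividing cells, at 342 against 412. The kinase gene Cdk1 had a log2 fold of -0.10 (-0.21 to 0.02), whose interval included 0, and in the mesothelial-like cluster Mki67 stood at 28.5 against 27.1. Stress and immediate early genes had a median of 0.26, with the heat shock gene Hspa1a at 13.8 against 6.46 and the cell cycle inhibitor Cdkn1a at 312 against 224. The list summed to 1486 CPM (1451 to 1521) against 1195 (1181 to 1209), and its part in the other results was not tested.

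Other places of Foxl2 expression and other cell types left few traces. The pituitary genes Gnrhr, Fshb and Cga had 0 UMIs in Foxl2-positive and in matched cells. The pituitary hormone precursor Pomc stood at 6.56 CPM (4.43 to 9.36) against 3.12 (2.43 to 3.94) and Pitx1, whose level was 354 in the endoderm-like cluster, at 23.4 against 88.1. The 8 head mesenchyme and neural crest genes compared had a median of 0.13. The 8 erythroid genes and the macrophage genes Lyz2, C1qa, C1qb, Ptprc and Adgre1 had 0 UMIs in Foxl2-positive cells. Sertoli genes with enough UMIs were Sox9 at 26.2 against 26.0 and Fgf9 at 30.4 against 22.1. The median log2 folds of the other lists were 0.09 for the gonad primordium, 0.17 for adult granulosa genes and reported Foxl2 targets, 0.18 for mesothelial and for surface ectoderm genes and 0.30 for BMP, activin and TGF-beta genes. They were 0.19 for germ cell, -0.46 for neuron, -0.60 for trophoblast, -0.66 for pluripotency, -0.74 for endothelial and -1.04 for S100g group genes. Within clusters the median was of the other sign for the gonad primordium (-0.09), head mesenchyme (-0.07), mesothelial (-0.02), germ cell (-0.21), endothelial (0.12), pituitary (0.16) and S100g group (0.60) lists, besides the interstitial list. Without the deepest 5% of barcodes it was -0.51 for surface ectoderm, -0.35 for epithelial and -0.01 for retinoic acid genes.

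**Figure D4:**
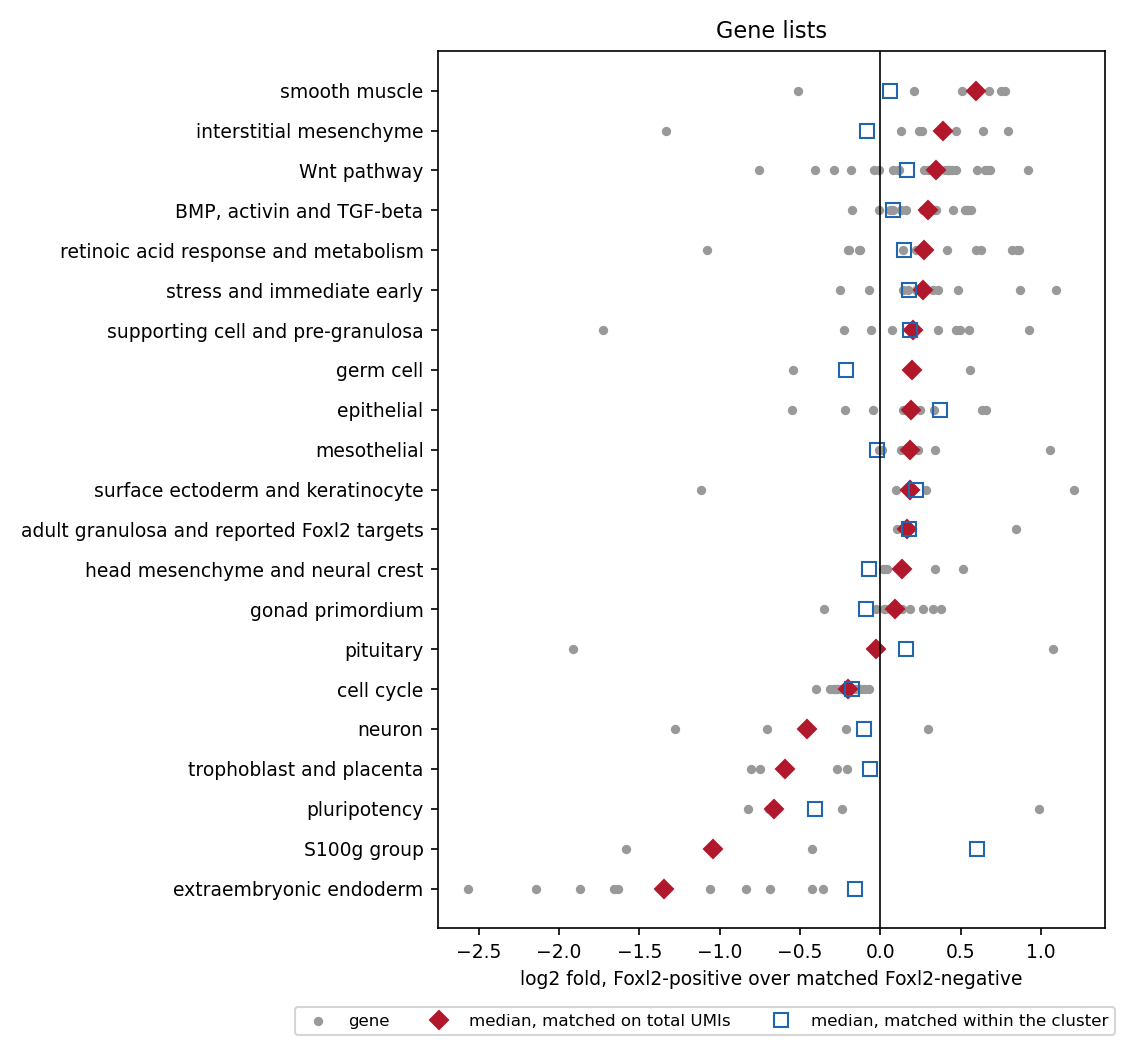
Each row is a gene list with at least 3 genes compared, grey points are the log2 folds of its genes (Foxl2-positive over matched Foxl2-negative barcodes), red diamonds their median and open blue squares the median when matching was within the cluster. The extraembryonic endoderm median lies at -1.35 and moves to -0.16 within clusters, and the smooth muscle median moves from 0.59 to 0.06.

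The likeness of Foxl2-positive cells was described within and between clusters. Over 5515 genes, Pearson's r of the log2 levels between the members of a cluster and an equal number of its other cells was 0.983 for the mesothelial-like, 0.980 for the cycling mesothelial-like, 0.977 for the interstitial-like and 0.965 for the epithelial-like cluster. Between Foxl2-positive cells of different clusters among these 4 it lay from 0.879 to 0.949. These values only describe the table. The clusters were made from the same genes, so closeness to the own cluster was given in advance. Mesothelial-like members gave 0.9485 with interstitial-like members and 0.9427 with other interstitial-like cells. With epithelial-like members they gave 0.8893, and with other epithelial-like cells 0.9066.

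Within the mesothelial-like cluster the gonadal genes did not separate Foxl2-positive from negative cells. Wnt4 stood at 427 CPM (391 to 467) against 436 (419 to 453), Rspo1 at 42.3 (31.3 to 55.9) against 43.2 (37.9 to 49.0) and Gata4 at 38.9 (28.3 to 52.0) against 37.3 (32.4 to 42.7). Wnt6, a ligand of epithelia, stood at 85.5 (69.5 to 104) against 50.5 (44.8 to 56.8). In the interstitial-like cluster, by contrast, Wnt4 and Rspo1 had higher levels in the 56 Foxl2-positive cells than in their 280 matched neighbours. Wnt4 stood at 360 (323 to 399) against 270 (255 to 284), Rspo1 at 13.9 (7.62 to 23.4) against 2.99 (1.67 to 4.92) and Fst at 34.9 (24.3 to 48.5) against 14.9 (11.7 to 18.7). A single barcode supplied 29 of the 35 Fst UMIs, and without it Fst stood at 6.17 (2.26 to 13.4), below the matched cells. The activin subunit gene Inhba stood at 103 (83.7 to 124) against 59.3 (52.8 to 66.4). Mki67 stood at 82.7 (65.8 to 103) against 163 (152 to 175). The difference between the clusters in these contrasts was not tested.

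The bulk libraries placed the Foxl2 level beside that of the embryonic gonad. Foxl2 was at 27.6, 26.1 and 15.8 FPKM (fragments per kilobase of transcript and 1000000 fragments) in the 3 E12.5_GC libraries, 23.2 ± 6.45 (SD, n = 3). It was at 1.42, 1.502 and 1.32 FPKM in V580_D4, 3.01, 3.34 and 3.30 in V580_D6, 3.34, 2.93 and 2.82 in V580_D8 and 4.88, 4.30 and 5.65 in V580_D10. No V580 library reached the lowest E12.5_GC library, and the day 10 and day 4 libraries did not overlap. On the log2(FPKM + 1) scale the difference of V580_D6 minus E12.5_GC was -2.48 ± 0.15 (SE; limma, adjusted p = 2.08e-09), and Foxl2 rose from V580_D4 to V580_D10 by 1.30 ± 0.15 (limma, adjusted p = 3.355e-06). Fewer cells of a type and less RNA per cell cannot be told apart in such libraries.

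Most supporting cell genes rose with time in V580, and at day 6 most were lower than in E12.5_GC. 12 of the 15 listed genes besides Foxl2 were in the bulk table and all 12 were tested. In V580_D6 against E12.5_GC 11 were lower and 0 higher, where 8.11% of all tested genes were lower and 7.06% higher. In V580_D10 against V580_D4 7 rose and 2 fell, where 8.76% and 3.51% of all tested genes did. Those that fell were Irx3 and Irx5. Summed over the list, the libraries held 673 to 744 FPKM in E12.5_GC, 47.2 to 49.99 in V580_D4, 90.2 to 96.2 in V580_D6 and 140 to 151 in V580_D10.

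Wnt4 rose in V580 to near the lowest E12.5_GC library. It was at 3.45, 3.25 and 3.54 FPKM in V580_D4, 35.7, 37.0 and 34.1 in V580_D6, 64.9, 59.97 and 58.9 in V580_D8 and 78.5, 72.2 and 83.8 in V580_D10, against 82.7, 124 and 94.9 in E12.5_GC. 1 of the 3 day 10 libraries lay above the lowest E12.5_GC library and the others below it. Between days 4 and 10 Wnt4 rose by 4.16 ± 0.11 on the log2 scale (SE; limma, adjusted p = 2.661e-13). Rspo1 rose by 1.25 ± 0.11 to 6.12 ± 0.457 FPKM (SD, n = 3) at day 10, against 41.0 ± 6.88 in E12.5_GC. Fst did not pass the test between days 4 and 10 (0.22 ± 0.11; limma, adjusted p = 0.104) and was at 2.69 ± 0.385 FPKM at day 10 against 58.6 ± 8.01. Kitl rose by 1.26 ± 0.10 to 6.55 ± 0.156 FPKM against 119 ± 22.6. Amhr2 was highest at day 8, at 24.6 ± 0.698 FPKM, and at day 10 it was at 5.53 ± 0.296.

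Gata4, a gonad primordium gene, was at 17.6, 15.96 and 17.5 FPKM in V580_D6 and at 135, 147 and 148 in E12.5_GC, a log2 difference of -3.004 ± 0.06 (SE; limma, adjusted p = 1.057e-14). It rose by 2.99 ± 0.06 between days 4 and 10 (limma, adjusted p = 1.587e-14). The log2 difference of Cd63 was -0.22 ± 0.12 in V580_D6 against E12.5_GC (limma, adjusted p = 0.13). Between days 4 and 10 it was 0.99 ± 0.12 (limma, adjusted p = 5.886e-06), under the limit of 2-fold.

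Some of the genes that led the Foxl2-positive cells also rose in bulk as Foxl2 did. 12 of the 15 named genes were in the bulk table and 10 were tested. In V580_D10 against V580_D4 6 of the 10 rose and 0 fell, where 8.76% of all tested genes rose. They were Alox5ap, Pgr, Gdf15, Tmem26, Thbs4 and Actg2. Actg2 was at 5.28, 4.96 and 4.21 FPKM on day 4 and 128, 101 and 125 on day 10, and Pgr at 0.314, 0.274 and 0.405 on day 4 and 8.14, 8.34 and 7.85 on day 10. The ranges of both days lay apart for both genes. In V580_D6 against E12.5_GC 5 of the 10 were higher and 0 lower, where 7.06% of all tested genes were higher, namely Abcb1b, Vnn1, Thbs4, Actg2 and Gprc5a. Smooth muscle markers rose over the same days, 5 of the 6 tested between days 4 and 10, and interstitial markers did so for 9 of 10. Of the 10 named genes with the lowest fold, 6 were tested in bulk. In V580_D6 against E12.5_GC 2 were higher and 1 lower, where 7.06% and 8.11% of all tested genes were. Between days 4 and 10, 2 were higher, where 8.76% of all tested genes were.

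Markers of other cell types moved with the comparison to E12.5_GC as well. Of all tested genes 8.11% were lower and 7.06% higher in V580_D6. All 3 erythroid genes in the table were lower in V580_D6, and they summed to 1038 to 4435 FPKM in E12.5_GC and 0.0183 to 0.282 in V580_D6. Of macrophage genes 5 of 6 tested were lower, with 25.5 to 48.01 against 5.34 to 6.03 FPKM and 1 of 7 at 0 in V580_D6, and of endothelial genes 4 of 6 were lower, with 49.7 to 79.4 against 23.5 to 24.8 FPKM. Germ cell genes summed to 4.87 to 9.004 FPKM in E12.5_GC and 9.24 to 10.3 in V580_D6, and 1 of the 4 tested was higher in V580_D6. Stress and immediate early genes summed to 1558 to 4100 FPKM in E12.5_GC and 1164 to 1445 in V580_D6. The heat shock gene Hspa1a was at 520, 70.5 and 6.40 FPKM in the 3 E12.5_GC libraries and Hspa1b at 801, 78.4 and 14.6, so that 1 library stood apart, while in V580_D6 they lay from 0.970 to 1.39 and from 3.26 to 3.63. The part of these cells and of the stress genes in the bulk differences was not tested.

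**Figure D5:**
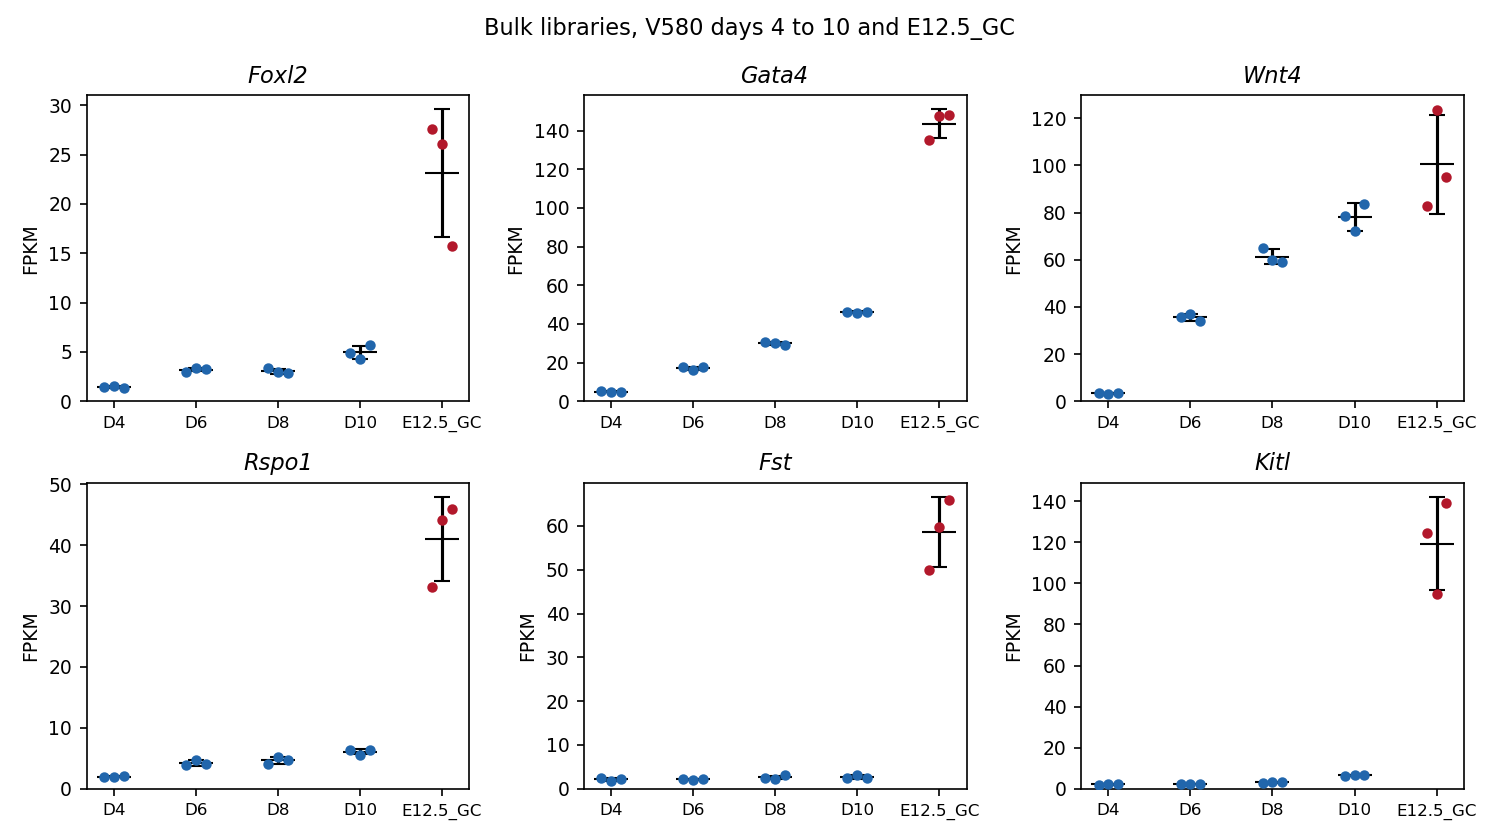
Each panel plots the FPKM of 1 gene in the 3 libraries of V580_D4, V580_D6, V580_D8, V580_D10 (blue) and E12.5_GC (red), with the mean as a line and the SD as bars. Foxl2 reaches 5.65 FPKM at most in V580 and at least 15.8 in E12.5_GC, while the Wnt4 libraries of V580_D10 (72.2 to 83.8) reach only the lower end of those of E12.5_GC (82.7 to 124).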

How the data were processed

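The authors deposited UMI counts per gene and barcode for the 10x sample, made with 3′ v2 chemistry and Cell Ranger per the methods. For the bulk libraries they deposited FPKM per gene. The submitters' processing notes name Trim Galore, FastQC, HISAT2, SAMtools, featureCounts, RSEM and mm10, without versions. Feeder cells were removed by adherence before induction. The methods define GSCLCs for aggregation as the cells left after magnetic removal of SSEA1-positive cells, and the 10x section calls its cells GSCLCs without describing that step.

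The members and gene lists were chosen with earlier results of these data known. Barcodes with at least 200 genes were kept (all 15412 of them, 163008244 UMIs, median 9193). The 15315 with at most 40% mitochondrial UMIs were clustered with Foxl2 left out (scanpy 1.11.5, 2000 variable genes, 20 components, 20 neighbours, Leiden resolution 0.5, leidenalg 0.10.2). Scrublet marked 1 barcode (0.00653%), which is no working filter, so no doublets were removed. Levels are summed UMIs of a gene for every 1000000 UMIs (CPM). Genes were compared where UMIs in Foxl2-positive cells plus those in matched cells divided by 5 reached 30. Named are the 15 highest and 10 lowest folds found in at least 5% of Foxl2-positive or matched cells (and 10 positive cells), without predicted or mitochondrial genes, and list members that describe a list. Intervals are exact Poisson or Clopper-Pearson at 95%.

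FPKM were tested as log2(FPKM + 1) with limma 3.58.1 in R 4.3.3 over the 5 groups, for 11512 of 13682 genes that had at least 1 FPKM in 3 libraries. Genes were called at an adjusted p below 0.05 (Benjamini-Hochberg) and at least 2-fold. Nothing states that the 3 libraries of a group came from separate cultures, so p-values measure only the spread between libraries. Read depth of the bulk libraries is unknown. 16 of 31 columns of the FPKM table and the other deposited tables were not used. Both analyses were tested on simulated data. The primers are from the study's primer list and were placed on the GENCODE transcript (GRCm38). Alternatives tried were other matching numbers and strata, 2 or more Foxl2 UMIs, leaving out the deepest barcodes, other filters, another resolution, thinning, another pseudocount, no fold limit, each library left out and a replicate block.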

Additional observations from a re-analysis of the deposited data

How the results depend on the processing

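The count of 74 higher genes was 147 with 1 matched negative per cell, 40 with matching within the cluster, 34 without the deepest 5% of barcodes and 29 with a limit of 60 UMIs. With 2 or more Foxl2 UMIs, 54 of 3855 genes compared (1.4%) were higher, 2 of them among the 74. The count of 134 lower genes was 30 within the cluster, 17 of them among the 134, and 81 with the limit of 60. With 2 or more Foxl2 UMIs it was 45 of 3855 genes compared (1.17%), 8 of them among the 134. With 2 or more Foxl2 UMIs (18 cells), Gata4 was found in 44.4% and Cd63 in 100% of cells, and Apoa1 (2.74), Cck (0.32), Procr (0.74) and Fhdc1 (1.10) changed to positive log2 folds. The log2 fold of Vnn1 changed to -0.0932 without the deepest 5%. The share of members in the cluster that holds most, 32.1% in the mesothelial-like one, was 21.3% at Leiden resolution 1 and 38.5% after thinning. With 2 or more Foxl2 UMIs another cluster, the interstitial-like one, held most, at 38.9% (7 of 18, against 5 in the mesothelial-like). The share of positives in the mesothelial-like cluster was 1.66% after thinning and, with 2 or more UMIs, 0.179%, against 0.0770% in the endoderm-like cluster. In bulk, the 813 higher and 934 lower genes of V580_D6 against E12.5_GC were 1240 higher with a pseudocount of 0.1, and 4029 and 3689 without the fold limit. The 1008 and 404 of V580_D10 against V580_D4 were 669 lower with a pseudocount of 0.1, and 3609 and 3814 without the fold limit. Leaving out each library gave 758 to 890 and 749 to 942 genes for the first comparison and 983 to 1017 and 362 to 416 for the second. Where not given by construction (a stricter limit, fewer cells), the cause was not tested.

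Library numbers did not pair the bulk samples: correlations of same-numbered deviations were 0.03, 0.0001 and 0.01 for V580_D6 with E12.5_GC and 0.10, -0.08 and -0.26 for V580_D10 with V580_D4. With a replicate block the counts were 813 and 934, and 1008 and 404. The planned run without marked doublets was not made, since 1 barcode was marked. Leaving out the top 5% of Scrublet scores or the deepest barcode, and matching 10 negatives, were added after seeing the data. A single sparse transcript in 1 sample limits all single-cell values: a barcode with no Foxl2 UMI is not shown to lack Foxl2.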
